A study of Bombyx mori with 3 samples.

Results

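The 30K lipoproteins of the silkworm Bombyx mori were followed here through 11 array probes, out of 23229 gene probes on the array. The members were chosen by a description that names a 30K or 30 kDa lipoprotein and selected on measured brightness: the brighter channel had to reach an intensity of 400 on all 3 arrays, a level that the files mark for each spot. That mark reads both channels, so a probe with a dim control could pass through its phoxim channel alone, and the ratios below are not independent of the choice. Larvae of strain P50, on day 3 of the fifth instar, were fed mulberry leaves dipped for 1 min in phoxim at 4 μg/mL, and control larvae of the same strain and age received leaves dipped in water. Phoxim is an organophosphate insecticide that inhibits acetylcholinesterase. Midguts were dissected after 24 h, each experiment used 30 larvae, and midgut RNA of phoxim-fed and of water-fed larvae was hybridised together on each of 3 arrays. The series design calls these arrays biological replicates, and their number limits the precision.

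The 30K proteins are a family of small secreted proteins that the fat body of moth larvae makes late in larval life and releases into the haemolymph. They accumulate there together with the storage proteins and are later taken up by other tissues, including the developing oocytes. They bind lipids, and silkworm members have also been studied in immunity and in the inhibition of apoptosis. The midgut is bathed by the haemolymph, and fat body, tracheae, muscle and haemocytes lie against it.

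Of the 11 probes, 4 carry gene identifiers, and all 6 identifiers were found in the RefSeq table of assembly ASM3026992v2. They name Lp-c23 and Lp-c12 (both sw19103), LP3 (sw22736), LP4 (sw01299, which the files also assign to Poldip3, the polymerase delta interacting protein) and Lp-c6 (sw06038). In that table the 5 lipoprotein genes lie on 1 chromosome in the order Lp-c23, Lp-c12, LP3, LP4 and Lp-c6. There are 2 annotated genes between Lp-c23 and Lp-c12, 3 between Lp-c12 and LP3, and 0 between LP3 and LP4 or between LP4 and Lp-c6. Poldip3 lies on another chromosome. The other 7 probes are known by their closest protein, which is 19G1 for sw17422, sw22699 and sw22776, 21G1 for sw19281 and sw09130, PBMHP-12 for sw22574 and PBMHPC-19 for sw03882. The files place the 11 probes in 9 gene models. Of the 11, 10 are annotated as extracellular, against 24 of the 3964 probes marked on all arrays (0.605%), a count that includes these 10. The members are similar in sequence, and their cross-hybridisation was not tested; the files carry 0 cross-hybridisation notes for them.

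The direction of each array was taken from its own header, which gives Cy5 to phoxim on replicates 1 and 3, and Cy3 to it on replicate 2. The sample labels put phoxim in Cy5 throughout. Of the 8 spiked positive controls, 8 had a sign of Cy5 over Cy3 on replicate 2 opposite to that on both other arrays. With the headers' direction, log2 ratios of replicate 2 correlated with those of replicates 1 and 3 at r = 0.62 and 0.26 over the 3964 marked probes. Between replicates 1 and 3, which have the same dyes, r was 0.18 there. With all 23229 gene probes included, replicate 2 correlated with replicates 1 and 3 at -0.47 and -0.45, and replicates 1 and 3 with each other at 0.42 (across probes, which are not independent replicates). Midgut genes were bright on every array: the 38 marked probes of the midgut list (aminopeptidase N, V-ATPase, peritrophic and mucin genes) summed to 359762 to 498202 in phoxim channels and to 335012 to 447354 in control channels.

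In the midgut of phoxim-fed larvae, 8 of the 11 30K probes rose and the remaining 3 did not pass the test, the folds of the 8 lying between 4.09 and 8.05. The 8 included all 4 probes with named genes (LP4, Lp-c23 with Lp-c12, LP3 and Lp-c6), and each was above 2-fold on all 3 arrays, as were 17 of 3964 marked probes (0.429%). The test was limma on the deposited log2 ratio of phoxim over control with adjustment over the 3964 probes. It called 20 probes higher (0.505%), 8 of them these members, and 7 probes lower (0.177%), with 0 members among them. Without the members, 12 of 3953 probes were higher (0.304%). Since the choice of members read the same arrays, the count describes the family and supports nothing further. Of the 11 members, 9 had a log2 ratio above 0 on all 3 arrays, as did 910 marked probes (23%). The median over the 11 probes was 2.20, 1.60 and 2.51 on the log2 scale on replicates 1, 2 and 3. The mean log2 ratio of the marked probes had a median of 0.035 and its 5th and 95th percentiles at -0.48 and 0.71. In bulk tissue, more cells of a type and more RNA per cell cannot be told apart. With replicate 2 turned to the labels' direction, 0 of the 11 probes were called and the family's median was 0.997 on the log2 scale (0 probes called in limma, 29 at an unadjusted p below 0.05). None of the 8 calls held, a count of 0, with a dye term or without the filter, where 0 probes of any kind were called higher. With scaling between arrays or a variance trend the count was also 0, but these 2 settings cannot be read for the family, as described below. Without replicate 2, 3 held, among 4 of 3964 probes called higher.

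**Figure D1:**
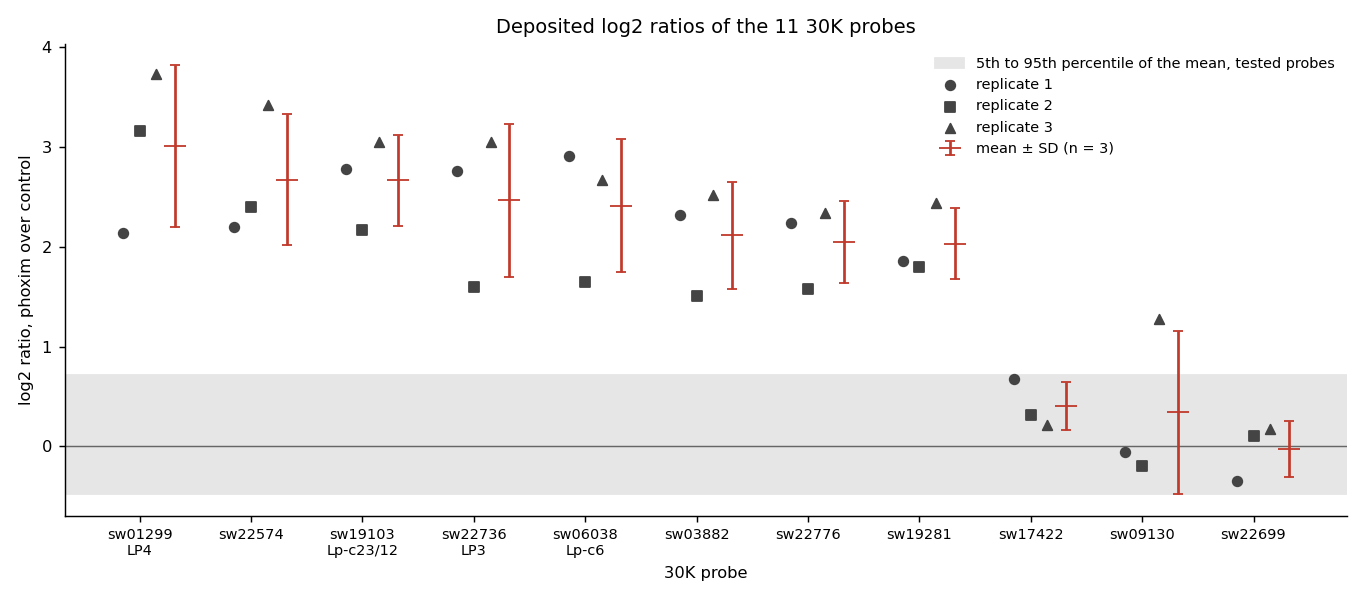
Deposited log2 ratio of phoxim over control (vertical axis) for each of the 11 30K probes (horizontal axis), with symbols for replicates 1 to 3 and bars for the mean ± SD (n = 3). The 8 probes on the left lie at 1.50 or above on every array, while the 3 on the right have means of 0.40, 0.34 and -0.03 inside the grey band of the 5th to 95th percentile of all marked probes.

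Among the named genes, the probe sw19103, shared by Lp-c23 and Lp-c12, gave intensities of 11262, 5052 and 34132 in the phoxim channel of replicates 1, 2 and 3, against 2307, 1301 and 5482 in the control channel. Phoxim was brighter within every array, yet the groups overlapped across arrays, because the control of replicate 3 was brighter than the phoxim of replicate 2. Its log2 ratios were 2.78, 2.16 and 3.05, with a mean of 2.66 ± 0.45 (SD over 3 arrays, limma's adjusted p = 0.0068) and a 95% interval of 2.16 to 3.17. LP3, measured by sw22736 and the gene of the 19G1 protein, had 7933, 3790 and 30226 in phoxim midguts and 1405, 1160 and 4978 in control midguts. These ranges overlap in the same way. Its log2 ratios were 2.75, 1.60 and 3.04, a mean of 2.47 ± 0.76 (SD over 3 arrays, limma's adjusted p = 0.018).

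Lp-c6, the gene of PBMHP-6 measured by sw06038, had 3726, 1678 and 10553 in phoxim midguts and 601, 464 and 2207 in control midguts. Again replicate 3 was brightest and replicate 2 dimmest in both channels. Its mean log2 ratio was 2.41 ± 0.67 (SD over 3 arrays, limma's adjusted p = 0.014), from 2.91, 1.65 and 2.67. LP4, the gene of 21G1 measured by sw01299, gave the highest deposited ratio of the family, with 3359, 1799 and 12172 in phoxim midguts and 904, 298 and 1393 in control midguts. These groups did not overlap, the lowest phoxim value (1799) lying above the highest control value (1393). The log2 ratios were 2.14, 3.16 and 3.73 and the mean 3.01 ± 0.81 (SD over 3 arrays, limma's adjusted p = 0.012). The size depended on the normalization: with loess on the intensities plus 50, the mean for sw01299 was 2.35, below the 2.38 of the PBMHP-12-matched sw22574. The plain quotient of the intensities also put sw22574 first (2.67 against 2.52), and with the sign of replicate 2 turned LP3 was first (1.40 for sw22736 against 0.90 for sw01299). The signal of this probe cannot be divided between LP4 and Poldip3, the other gene assigned to it.

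The 4 called probes without a gene identifier showed the same arrangement of arrays. The 19G1-matched sw22776 had 4357, 1861 and 13112 in phoxim midguts and 800, 481 and 2179 in control midguts, with a mean log2 ratio of 2.05 ± 0.41 (SD over 3 arrays, limma's adjusted p = 0.012). The 21G1-matched sw19281 had 2265, 1021 and 9817 in phoxim midguts and 532, 203 and 1556 in control midguts, with a mean of 2.03 ± 0.35 (SD over 3 arrays, limma's adjusted p = 0.012). Both overlapped across arrays, phoxim on replicate 2 lying below control on replicate 3.

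The remaining pair was dimmer in control midguts. The PBMHP-12-matched sw22574 had 1741, 838 and 4176 in phoxim midguts and 428, 123 and 436 in control midguts, without overlap, and a mean log2 ratio of 2.67 ± 0.66 (SD over 3 arrays, limma's adjusted p = 0.012). Its control was above the 95th percentile of the negative control spots of its channel on 2 of 3 arrays. The PBMHPC-19-matched sw03882 had 925, 427 and 4310 in phoxim midguts and 190, 98 and 789 in control midguts, with a mean of 2.11 ± 0.54 (SD over 3 arrays, limma's adjusted p = 0.014). Its control passed that percentile on 1 of 3 arrays only, so that ratio rests partly on intensities within the range of negative controls. In all, 4 of the 8 called probes had a control below 400 on at least 1 array and owed their mark there to phoxim. Of the 7 members with both channels at 400 or above on all arrays, 4 were called higher when the fit was limited to such probes (14 of 3215 called higher, 0.435%).

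**Figure D2:**
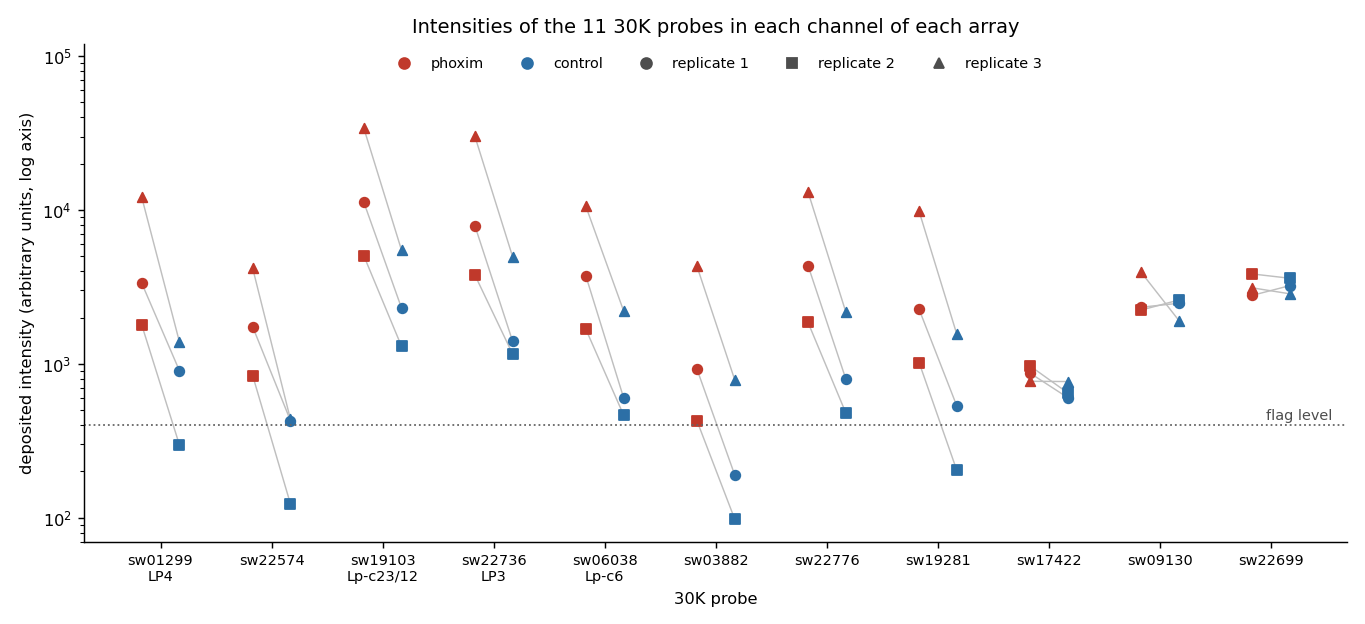
Deposited intensities on a log axis for the 11 30K probes, phoxim channel on the left and control channel on the right of each pair, with grey lines joining the channels of 1 array. In the 8 called probes all 3 lines slope down from phoxim to control and replicate 3 is brightest in both channels, from 34132 against 5482 in sw19103 to 4176 against 436 in sw22574; in the last 3 probes the channels lie nearer to each other, the widest gap being 3934 against 1912 in sw09130 on replicate 3.

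The 3 probes that did not pass had signals above the negative controls in both groups on all arrays. The 19G1-matched sw22699 had 2789, 3843 and 3122 in phoxim midguts and 3229, 3601 and 2853 in control midguts. Its mean log2 ratio was -0.03 ± 0.28 (SD over 3 arrays, limma's adjusted p = 0.96), and the 95% interval of the fold, 0.732 to 1.32, lies below the lowest fold of the 8 called probes. The 19G1-matched sw17422 had 870, 969 and 771 in phoxim midguts and 603, 647 and 768 in control midguts. Its lowest phoxim value exceeded its highest control value by 3 units, and its mean log2 ratio was 0.40 ± 0.24 (SD over 3 arrays, limma's adjusted p = 0.33). The 21G1-matched sw09130 had 2335, 2238 and 3934 in phoxim midguts and 2479, 2603 and 1912 in control midguts. Its log2 ratio was near 0 on replicates 1 and 2 (-0.06 and -0.20) and was 1.28 on replicate 3, so that the mean of 0.34 ± 0.81 (SD over 3 arrays, limma's adjusted p = 0.59) turned to -0.13 without replicate 3. Non-overlapping channels, seen in 3 of the 11 members, occurred in 333 of the 3964 marked probes in the direction of higher phoxim (8.4%).

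In 2 gene models, 1 probe rose and another probe of the same model did not pass. The model Bmb021422 holds sw22736 (LP3) and sw17422, whose log2 ratios differed by 2.08, 1.29 and 2.83 on replicates 1, 2 and 3. The model Bmb030489 holds sw22776 and sw22699, whose log2 ratios differed by 2.58, 1.48 and 2.17. The probe that rose had, on average, a ratio 4.18 times and 4.21 times that of its partner, and in both models it was the higher on all 3 arrays. The files also keep an archival model for each probe, and there the 11 probes have 11 models: sw22736 and sw22776 stood under Bmb035159 and Bmb041112. For the pair of Bmb030489 the files list nearly the same expressed sequence tags (ESTs, short reads of cDNA clones): 183 tags are shared, 96.8% of the 189 of sw22699 and 97.9% of the 187 of sw22776. The pair of Bmb021422 cannot be set side by side in this way, since 250 tags are listed for sw22736 and 0 for sw17422. Which transcripts each probe detects was not tested.

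The listed tags also give a feature that the choice of members did not use, read after the ratios had been seen. Of the 8 members with at least 20 tags, 7 drew 80% or more of them from 2 cDNA libraries coded swc and swd, whose tissue is not named in those entries. The 7 are sw01299 (95%), sw19103 (87.0%), sw22736 (90%), sw06038 (96.3%), sw03882 (95.7%), sw22776 (89.8%) and sw22699 (91.5%). The exception was sw09130, with 1 of 22 tags (4.55%). Among the 262 marked probes with at least 20 tags the median was 3.17%, and 11 reached 80%, the 7 members and 4 others. Those others were the arylphorin-matched sw06703, Sp2, Sp1 and a catalase-matched probe, sw03619. The first pair rose (mean log2 ratios of 2.67 and 2.06), and Sp1 and sw03619 did not pass, with 1.76 and -0.09. The library share and the response did not run together in every probe, as Sp1 and sw03619 reached 80% and did not pass. The shares of sw22699 and sw22776 are not separate values, since nearly all their tags are the same. The 91.5% listed for sw22699 therefore cannot be set against its mean log2 ratio of -0.03.

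The 8 called probes also differed between arrays within each treatment, in both channels at once. Comparing replicate 3 with replicate 1, which have the same dyes, the phoxim channel was brighter by a median of 1.73 on the log2 scale (1.26 to 2.22 over the 8 probes). The control channel was brighter by a median of 1.50 (0.03 to 2.05). Over all 3964 marked probes the same medians were -0.09 and 0.06, with 3.2% and 2.4% of probes at least doubled. Among the 8 probes 8 and 6 at least doubled, the exceptions in the control channel being sw01299 (1.54-fold) and sw22574 (1.02-fold). The highest control change, in sw03882, rests on a replicate 1 control within the range of the negative controls, and the next, in sw06038, was 3.67-fold. The 3 probes that did not pass had control changes of -0.37 to 0.35 on the log2 scale. On replicate 2 the 8 probes were dimmer than on replicate 1, by a median log2 change of -1.13 in phoxim and -0.89 in control midguts, though the dyes differ there. These intensities are not normalized between arrays, and the pattern was described after the values were seen.

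**Figure D3:**
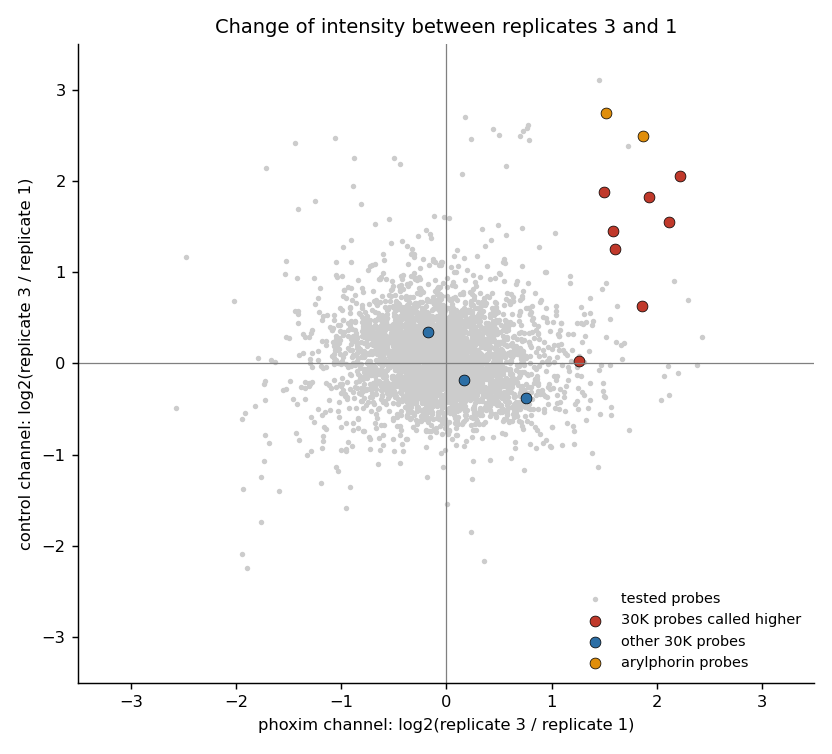
Log2 change of intensity from replicate 1 to replicate 3 in the phoxim channel (horizontal) and in the control channel (vertical), for the 3964 marked probes in grey (3 lie outside the axes) and for 30K and arylphorin probes in colour. The 8 called 30K probes lie to the right, at 1.26 or more, and 6 of them above 1 in the control channel, next to both arylphorin probes, while the other 3 lie within the cloud.

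Of the 23 probes on the array named for a 30 kDa lipoprotein or for microvitellogenin, the related protein of the tobacco hornworm, 12 were not members. One of them, sw20980, matched to 21G1, meets the description and the mark and is not on the list of members. It had 407, 410 and 310 in phoxim midguts and 372, 397 and 431 in control midguts, close to the level of the mark, with a mean log2 ratio of -0.12 ± 0.43 (SD, n = 3). Just outside the mark, the 19G1-matched sw12676 had 690, 335 and 980 in phoxim midguts against 114, 101 and 199 in control midguts, where no value passed the negative controls. The 21G1-matched sw19541 had 357, 242 and 808 in phoxim midguts against 105, 0 and 129 in control midguts, likewise not above the negative controls in control. On replicate 2 the phoxim value of each was also within the range of the negative controls. The phoxim channel of both probes was brightest on replicate 3, as in the 8 called members. The microvitellogenin-matched sw22523 had 502, 557 and 286 in phoxim midguts and 475, 247 and 342 in control midguts, which overlap. The other 8 were unmarked on every array and had no intensity above 83.

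The storage proteins are large hexamers that supply amino acids to the pupa. Of 4 marked probes drawn by name, 2 rose and 2 did not pass (20 of 3964 probes called higher, 0.505%). The list's median of the mean log2 ratio was 1.91, but 1.07 without replicate 1 and 0.82 with the sign of replicate 2 turned. The arylphorin-matched sw06703 had 15824, 8816 and 45203 in phoxim midguts and 1588, 2163 and 10658 in control midguts, and a mean log2 ratio of 2.67 ± 0.47 (SD over 3 arrays, limma's adjusted p = 0.0068). Sp2, an arylphorin, had 5512, 2248 and 20161 in phoxim midguts and 713, 625 and 4013 in control midguts, and a mean of 2.06 ± 0.54 (SD over 3 arrays, limma's adjusted p = 0.015). Both were brightest on replicate 3 in both channels, as the called 30K probes were. Sp1, the female-enriched storage protein, had 5834, 1562 and 3707 in phoxim midguts and 132, 410 and 7863 in control midguts. Its control on replicate 1 was within the range of the negative controls, so the log2 ratio of 4.53 there is not an exact value. On replicates 2 and 3 the ratios were 1.70 and -0.96, of opposite sign, and Sp1 did not pass (adjusted p = 0.38, limma). The 4th probe, sw13894, matches a cofactor of the transcription factor Sp1 and is no storage protein. Its mean was 0.10, and the medians of the list given above include it.

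For probes drawn by the names of lipid carriers or other haemolymph proteins, the difference from the 30K probes was not tested. Of 5 marked probes drawn by the names of lipophorins, fatty acid binding proteins and other lipid carriers, 0 were called in limma (603 of all 3964 had an unadjusted p below 0.05), and their median was -0.06 on the log2 scale. Only apolipophorin-III among them is named for a haemolymph lipid carrier, the others being fatty acid binding proteins, Cjhbp and sw22515. The median therefore does not describe haemolymph carriers as a group. One of the 5, sw22515, is described first as a serine protease and had 59612, 59626 and 63318 in phoxim midguts and 59025, 59716 and 55541 in control midguts. These lie at or near the brightest signal of the arrays, so its ratio may not show a change. Apolipophorin-III, which loads lipid onto the haemolymph carrier lipophorin, had the highest mean of the 5, 0.44 ± 0.27 (SD over 3 arrays, limma's adjusted p = 0.31), and Cjhbp, a cytosolic juvenile hormone binding protein, the lowest, -0.57 ± 0.43 (SD, n = 3). No probe described as lipophorin itself or as vitellogenin, the yolk protein precursor, is among the 5. Of 14 other probes for haemolymph or immune proteins, 1 rose and 13 did not pass, with a median of 0.10. The one that rose was sw03888 (p27K), a match to a hornworm haemolymph glycoprotein, with 5757, 5601 and 5864 in phoxim midguts and 2333, 1306 and 1408 in control midguts and a mean of 2.00 ± 0.62 (SD over 3 arrays, limma's adjusted p = 0.026). Unlike the 8 called 30K probes, p27K had phoxim intensities within 5601 to 5864 on all arrays. The lowest of the 14 was the antimicrobial peptide cecropin D at -0.39 ± 0.39 (SD, n = 3).

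Marker lists of tissues that lie against the midgut are given beside the family, and their part in its change was not tested. The 38 marked muscle-named probes had a median of 0.43 on the log2 scale, 0 of them called, and summed to 136457 to 177315 in phoxim and to 102482 to 127639 in control channels. The highest mean was listed for sw17870, a myosin IXA match, but 1 of its channels was at 25 to 79 on each array, within the range of the negative controls, so its ratio was not measured. The lowest was in sw16404 (myosin light polypeptide 9, -0.48), which did not pass. The list also holds other proteins matched by name, such as the density-regulated protein sw03808 (-0.33), so its median is not that of sarcomere genes. Further probes are named here after their values were seen. The titin-like probes had means of 0.76 to 1.21 and the paramyosin probes 0.56 and 0.98. Probes matched to tropomyosin ran from -0.40 to 0.44. With the sign of replicate 2 turned, the muscle median was 0.23 and that of the haemocyte list below was 0.11. Of 10 haemocyte-named probes, 1 rose and 9 did not pass, the median was 0.40, and sums ran from 9726 to 10221 in phoxim and from 6293 to 8557 in control channels. The one that rose was a hemocyte protease, sw07651, with a mean of 1.63 ± 0.25 (SD over 3 arrays, limma's adjusted p = 0.014), with its replicate 2 control of 158 within the range of the negative controls. The lowest was Adamts-1 (sw02458) at -0.08. This list also holds other proteins matched by name, such as an integrin binding protein (sw10747, -0.08). Its median is therefore not that of haemocyte genes alone. Named after its value was seen, the prophenoloxidase-matched sw05534 had a mean of 1.29 ± 0.57 (SD over 3 arrays, limma's adjusted p = 0.075). The prophenoloxidase activating proteinase match sw20327 had 0.72, and the other hemocyte protease, sw12086, had 0.36. These did not pass. The 9 cuticle and tracheal probes had a median of 0.24 with 0 called, but of 0.06 without replicate 1, 0.44 without replicate 3 and -0.02 with the sign of replicate 2 turned. They ran from LCP18 at -0.09 to Wcp11 at 0.73, and sums of 34778 to 41960 in phoxim and 28611 to 45298 in control channels. No marked probe of any of these lists had an intensity at 0. Silk gland genes were not among the marked probes, the 1 match by name (sw18317) being a Mediator subunit.

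The 38 midgut probes had a median of 0.08 with 0 called, from sw14354, a V-ATPase subunit C probe, at -0.81 to sw06604, an intestinal mucin match, at 1.67. The mucin match had 3.67, 1.50 and -0.15 on replicates 1, 2 and 3. Ecdysone and juvenile hormone govern the timing of late larval gene expression in the fat body. Of 22 marked probes named for these hormones, 1 rose and 21 did not pass, and the median was 0.08. The one that rose, named after its value was seen, was the E75-matched sw07625 (mean log2 ratio 1.22). E75 is a nuclear receptor induced early by ecdysone. The probes matched to silkworm E75, sw11067 and sw06304, also named after their values were seen, both had a mean of 0.79. Neither passed (adjusted p = 0.14 and 0.13, limma). The highest mean was in sw19839, matched to a viral ecdysteroid glucosyltransferase (1.58, adjusted p = 0.067, limma). The lowest was in sw22644, matched to an enzyme that reduces 3-dehydroecdysone (-1.10, adjusted p = 0.13, limma). Other probes with that match, named after their values were seen, were sw22643 (-1.04), sw21851 (-0.12), sw04453 (-0.04) and sw19113 (0.21).

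**Figure D4:**
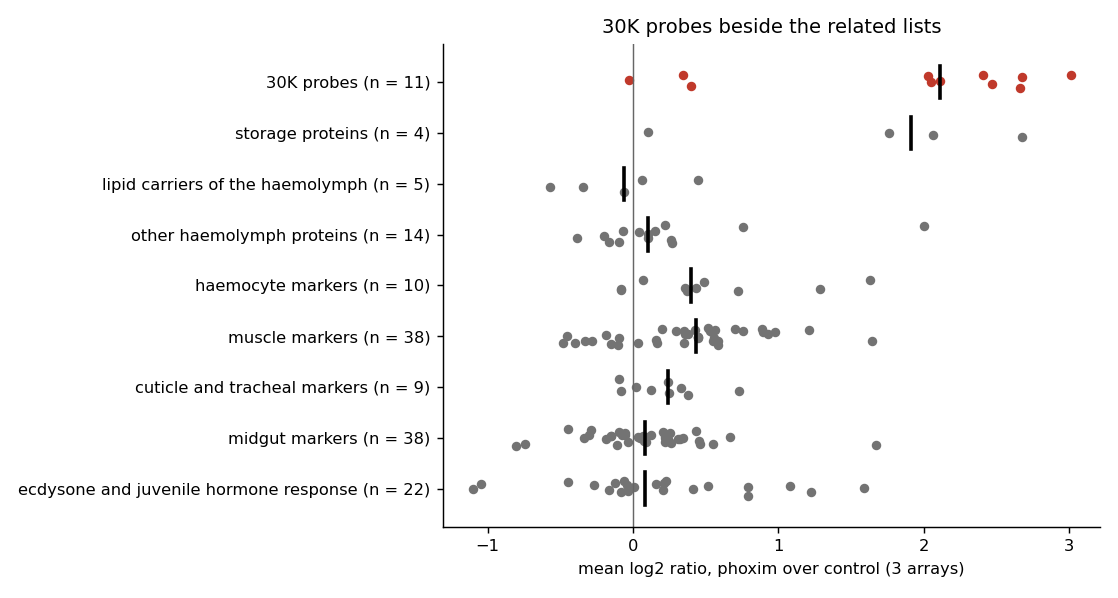
Mean log2 ratio of phoxim over control over 3 arrays for the 11 30K probes and for the marked probes of 8 lists drawn by name, with 1 point per probe and a black bar at each list's median. The 30K median is 2.11 and that of the storage protein list 1.91, while the other lists have medians between -0.06 and 0.43. The lists hold matches by name only: the storage list includes sw13894 (0.10), which is no storage protein. In the lipid carrier list only apolipophorin-III is named for a haemolymph carrier.

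Likeness to the family was measured as the distance, over the 3 log2 ratios, between a probe and the family's median on each array. Among 3151 marked non-member probes with a description, the nearest was Sp2 at 0.686. It was followed by sw22695 at 1.14, matched to a human protein without a functional name, the hemocyte protease sw07651 at 1.16, the chymotrypsin inhibitor Sci-sb at 1.31 and the arylphorin-matched sw06703 at 1.32. The 8 called members lay at 0.153 to 1.98, so that the probes named here are as near as some members. Of the 5, Sp2, sw07651 and sw06703 rose, and sw22695 (mean log2 ratio 1.56, adjusted p = 0.068, limma) and Sci-sb (1.60, adjusted p = 0.12, limma) did not pass. With 3 arrays such a distance describes the size of the ratios more than their pattern.

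All 8 called probes kept a positive mean under each alternative in which they were tested, and the number called moved with the alternative. It stayed at 8 with loess on the intensities plus 50, with the plain quotient of the intensities and with median centring. The same count held with centring within array blocks, with robust variances and without replicate 1 or replicate 3. Of 3964 probes, 22, 16, 18, 15, 20 and 17 were called higher in these settings up to replicate 1, against 20 in the main fit. Without replicate 3, 283 were called higher and 187 lower, so the count of 8 there stands among far more calls. Without replicate 2 the number of members called was 3, among 4 of 3964 probes called higher. The called members were sw19103, sw22736 and sw06038. None was called, a count of 0, after fitting dye orientation, with scaling between arrays, with a variance trend and with no filter on dim probes. In these settings 348, 600, 603 and 450 probes had an unadjusted p below 0.05 in limma, with 0, 1, 0 and 0 called higher. Of the members, 8, 8, 3 and 8 were higher at such a p. With the dye term, limma's adjusted p of the 8 probes was 0.060 to 0.071. The scaling divided each array by its median log2 ratio, near 0 (0.0498, 0.0480 and 0.0389), so it did not equalize spread. The trend followed the mean log2 ratio, not intensity, so the expected variance depended on the ratio under test. These 2 counts of 0 cannot be read for the family. With the plain quotient of the intensities, the means of the 8 probes lay between 2.23 and 2.67, a narrower range than the 2.03 to 3.01 of the deposited ratio. For 1 probe alone, an exact sign permutation over 3 arrays cannot go below a two-sided p of 0.25.

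**Figure D5:**
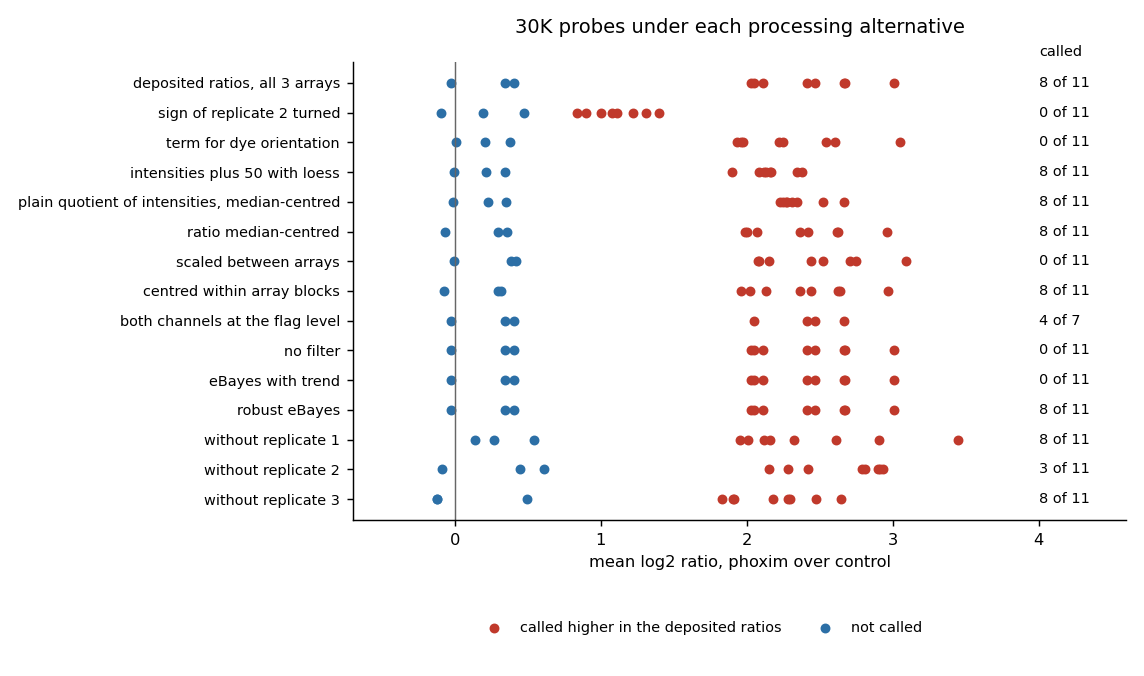
Mean log2 ratio of phoxim over control for each 30K probe under the deposited ratios and each processing alternative, with the number called higher on the right. The 8 probes in red lie at 1.83 or above in every setting except with the sign of replicate 2 turned, where they lie at 0.834 to 1.40.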

How the data were processed

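For each spot the deposited 2-colour files list linear intensities of both dyes and a ratio, whose numerator the file headers name as phoxim. The deposited intensities hold many zeros and no separate background, and the deposited ratio is not their quotient, so it had been normalized; how, and with which scanner and software, was not given in these sources. The deposited value table equals the log2 of the deposited ratio within 4.92e-09 on 24288 spots, with column medians of 0.0403, -0.0209 and 0.0158. Median intensities of marked probes were 1074.5 to 1272 for phoxim and 1123.5 to 1159 for control.

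Gene probes marked on all arrays (3964 of 23229, 1 spot each) were fitted with an intercept in limma 3.58.1 (R 4.3.3, eBayes, two-sided, Benjamini-Hochberg, threshold 0.05). The same fit was also run on simulated data with the spread fitted to these probes, which held no dye or array effects. Tables were made with Python 3.11.15. The planned normexp and loess were not run as the main setting, since the ratio was already normalized. Replicate p-values measure the spread between these 3 arrays. The 11 members, the lists (patterns on symbols and descriptions) and the alternatives were chosen with earlier results of these data known. The genes named are the members, storage proteins, the highest and lowest probe of each list and the 5 nearest probes; others are named where the text says so. Probe sequences of the members were not used here. RefSeq served for names and gene order only.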

Additional observations from a re-analysis of the deposited data

How the results depend on the processing

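The count of 30K probes called higher was 8 in the main setting, where 20 of 3964 probes were called higher. It was 0 with the sign of replicate 2 turned, with a term for dye orientation, with no filter and with a variance trend. In each of these settings 0 probes of any kind were called higher. With scaling between arrays the count was 0, and 1 of 3964 probes was called higher. The scaling and the trend cannot be read for the family, for the reasons given above. With both channels at the flag level the count was 4, where 7 members were tested and 14 of 3215 probes were called higher. It was 3 to 8 with 1 replicate left out, the 3 being without replicate 2, where 4 of 3964 probes were called higher. Without replicate 3, 283 of 3964 were called higher. The family's median log2 ratio, 2.11 in the main setting, was 0.997 with the sign of replicate 2 turned and 1.91 to 2.42 with 1 replicate left out. Adding sw20980 to the members, chosen after seeing the data, left 8 called and a median of 2.08. Of the members' single ratios under the alternatives, 102 kept direction and side of the threshold, 45 kept the direction and lost the call, and 3 turned. The mean of sw22699 (-0.03) was 0.00631 with a term for dye orientation and lay between -0.123 and 0.135 with 1 replicate left out, positive without replicate 1. The mean of sw09130 (0.34) lay between -0.126 and 0.612 with 1 replicate left out, negative without replicate 3. The causes were not tested. The mean of sw22699 lay near 0, while that of sw09130 rested on replicate 3 (log2 ratio 1.28, against -0.06 and -0.20 on replicates 1 and 2). Fewer probes were tested with both channels at the flag level. No paired analysis was possible beyond the main one, because phoxim and control of a replicate already enter the fit as 1 ratio within their array. Signal over background limits sw03882 and sw22574, whose controls were above the negative controls on 1 and 2 arrays.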
